A study of Mus musculus with 6 samples.

Results

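The genes described here encode enzymes that release arachidonic acid from membranes and turn it into hydroxy fatty acids and prostaglandins. They were chosen by name as 7 genes, Pla2g4a, Alox12, Alox15, Ptgs1, Ptgs2, Hpgds and Ptges, with every probe set whose platform annotation gave a member as its single symbol. Earlier results of these data were known when they were chosen. This rule found 10 probe sets of 6 genes, out of 35877 probe sets tested and 18193 genes represented. Ptgs1, which encodes the constitutive cyclooxygenase, is not analysed here. Alox12, Ptgs2 and Ptges had 2, 2 and 3 probe sets, and Pla2g4a, Alox15 and Hpgds had 1 each.

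Transcript levels were measured on 6 arrays in mouse bone marrow cells sorted as GFP+, lineage-negative, c-Kit+ and Sca-1+, a gate that holds haematopoietic stem cells and early progenitors. The cells came from the long bones of mice in an experimental model of chronic myeloid leukaemia, with the empty vector group as the control without BCR/ABL. In 2 arrays the cells carried the empty GFP vector, in 2 they expressed BCR/ABL, the fusion tyrosine kinase of that leukaemia, and in 2 they expressed BCR/ABL and the mice had been given imatinib, which inhibits the kinase. All 3 groups were selected for GFP. The sources used here give no mouse strain, age, imatinib dose or treatment time. The labels number the arrays of a group but do not name separate animals or cultures, so the p-values reflect the spread between these samples alone, and that spread may be technical.

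Phospholipase A2 enzymes cut arachidonic acid out of membrane lipids. Lipoxygenases add oxygen to it to make hydroperoxides and hydroxy acids, while cyclooxygenases make prostaglandin H, which terminal synthases convert into the separate prostaglandins. In bone marrow, prostaglandin E is known to act on stem and progenitor cells, prostaglandin D is a typical product of mast cells, and platelets carry their own lipoxygenase. Pla2g4a and Ptgs2 are neighbours on chromosome 1 with 0 protein-coding genes between them in the RefSeq table, and Alox12 and Alox15 lie on chromosome 11 with 1 protein-coding gene, Alox12e, between them (assembly GRCm38.p6).

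The upstream sequences of 3 members are shown: Ptgs2, which had the highest change between BCR/ABL and vector among the members, Hpgds, whose arrays also separated those groups, and Pla2g4a, which was bright on every array. Each is the 250 bases before the RefSeq start of the gene (most upstream start for Pla2g4a), written 5′ to 3′ on the gene's strand in GRCm38.p6. Ptgs2 is at chr1:150099781-150100030 on the plus strand, Hpgds at chr6:65144731-65144980 on the minus strand and Pla2g4a at chr1:149961291-149961540 on the minus strand. Capitals mark letters that matched a searched motif.
Ptgs2: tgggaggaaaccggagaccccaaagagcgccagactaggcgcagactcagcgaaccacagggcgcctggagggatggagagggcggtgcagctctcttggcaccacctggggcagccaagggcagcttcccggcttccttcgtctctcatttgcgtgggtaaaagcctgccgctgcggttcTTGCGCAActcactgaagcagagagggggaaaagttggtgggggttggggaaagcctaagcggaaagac
Hpgds: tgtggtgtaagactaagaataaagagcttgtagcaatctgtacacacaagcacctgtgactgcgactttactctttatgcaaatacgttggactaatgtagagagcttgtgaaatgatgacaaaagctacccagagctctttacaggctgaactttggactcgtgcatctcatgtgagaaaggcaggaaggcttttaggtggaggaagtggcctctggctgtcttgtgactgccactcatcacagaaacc
Pla2g4a: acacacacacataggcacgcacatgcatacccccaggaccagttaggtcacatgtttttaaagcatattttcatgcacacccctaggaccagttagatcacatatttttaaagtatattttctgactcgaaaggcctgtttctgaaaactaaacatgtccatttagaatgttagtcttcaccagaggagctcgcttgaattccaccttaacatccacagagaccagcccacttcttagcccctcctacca

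Windows of 300 bases, 250 before and 50 from each start, were searched on both strands for CACGTG (E-box), CGTCA (cAMP response element core), TTGCGCAA (C/EBP palindrome), TTCNNNGAA (STAT), the GATA motif AGATAA and TGANTCA (AP-1). Ptgs2 held 3 matches: TTGCGCAA from -69 to -62, which 0.183% of 32851 windows hold, and, after the start, CGTCA from 14 to 18 overlapping CACGTG from 17 to 22, which 20.8% and 7.15% of windows hold. The shares for TTCNNNGAA, AGATAA and TGANTCA were 8.3%, 11.2% and 7.81%. The windows of Pla2g4a, Alox12, Ptgs1, Hpgds and Ptges held 0 matches of these letters. Alox15 was not searched. The base composition also differed, with 61.6% G and C in the Ptgs2 stretch, 45.2% in Hpgds and 43.2% in Pla2g4a.

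Intensity is the brightness of a probe set on a linear scale; the mean without the outer 2% on each side was 500 on every array. On each array 36.1% to 41.5% of probe sets were under 16, the constant added before taking log2, and values there have little meaning beyond being dim. Log2 levels and changes below are of the value plus 16 after quantile normalization, so folds of dim probe sets are understated. Replicates correlated at 0.971 (vector), 0.99 (BCR/ABL) and 0.985 (imatinib), and 10.3%, 2.4% and 4.49% of probe sets differed more than 2-fold between the replicates of those groups. Of the sorted population's markers, Kit lay between 1120 and 2660 and Cd34 between 4380 and 6020 on the 6 arrays, while Ly6a (Sca-1) is not analysed here. Although the gate was lineage-negative, the summed intensity of 8 B cell markers was 21200 and 4440 on the vector arrays, 1250 and 2300 on the BCR/ABL arrays and 642 and 1730 on the imatinib arrays. In these bulk samples fewer cells of a type and less RNA per cell cannot be told apart.

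**Figure D1:**
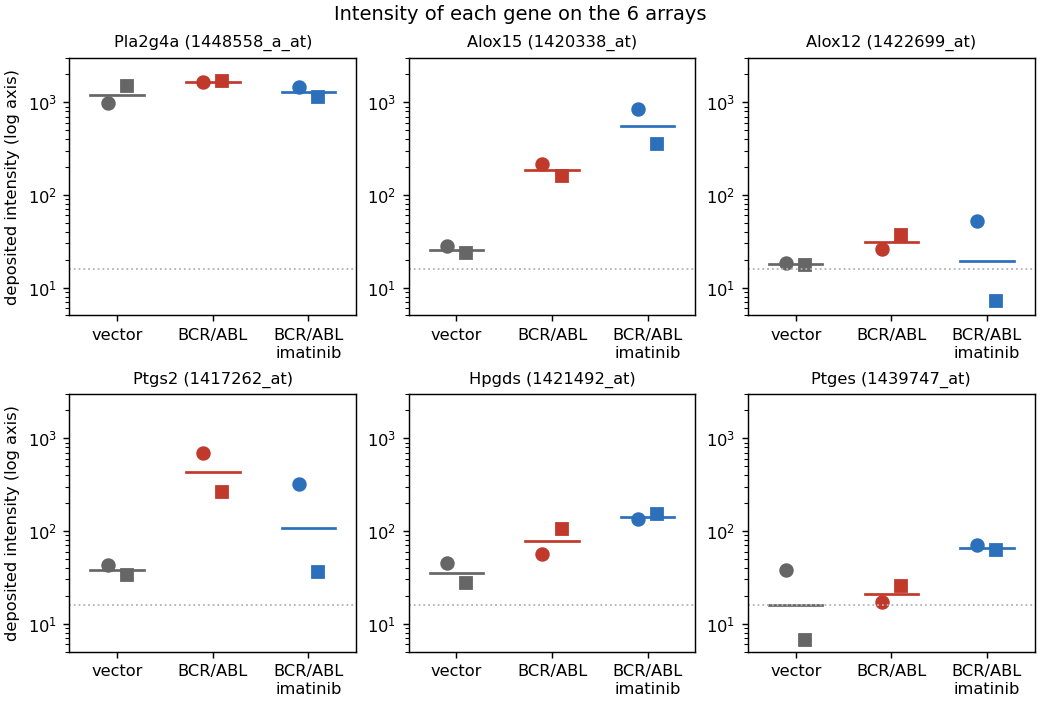
Deposited intensity (log axis) of the brightest probe set of each of the 6 genes on the vector, BCR/ABL and BCR/ABL imatinib arrays, with circles for replicate 1, squares for replicate 2, bars for the geometric mean of 2 arrays and a dotted line at 16. Alox15 is at 27.8 and 23.7 in vector and at 845 and 357 with imatinib, whereas the imatinib arrays of Ptgs2 lie apart at 322 and 36.4.

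Pla2g4a encodes the cytosolic phospholipase that begins the pathway, and it was bright on all 6 arrays. Its intensity was 973 and 1510 on the vector arrays, 1650 and 1700 on the BCR/ABL arrays and 1480 and 1150 on the imatinib arrays. On each array it lay above 79.2% to 86.1% of the probe sets tested. Both BCR/ABL arrays were above all the others, and the imatinib arrays lay between the vector arrays. Its log2 change was 0.42 (95% confidence interval -0.15 to 1, adjusted p = 0.555) for BCR/ABL against vector. It was -0.33 (-0.91 to 0.24, adjusted p = 0.596) for imatinib against BCR/ABL and 0.09 (-0.49 to 0.67, adjusted p = 0.915) for imatinib against vector, the last with its sign turned, at -0.02, when array medians were subtracted.

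Alox15 encodes the leukocyte 12/15-lipoxygenase, and it was low in vector, higher in BCR/ABL and higher again with imatinib. Its intensity was 27.8 and 23.7 on the vector arrays, 214 and 160 on the BCR/ABL arrays and 845 and 357 on the imatinib arrays. No array of one group overlapped another group. Its rank moved accordingly, from above 39.6% and 38% of probe sets in vector to above 76.9% and 64.8% with imatinib. The log2 level was 5.37 ± 0.09 (SD, n = 2) for vector, 7.76 ± 0.31 for BCR/ABL and 9.09 ± 0.93 for imatinib.

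The change of Alox15 from vector to BCR/ABL was 2.38 on the log2 scale (SE 0.5, adjusted p = 0.23), or 5.22-fold, and 1.57 with 64 as the added constant. From BCR/ABL to imatinib it was 1.33 (SE 0.5, adjusted p = 0.306), and its size was 0.67 without imatinib replicate 1 and 2.01 without imatinib replicate 2. From vector to imatinib it was 3.71 (SE 0.5, adjusted p = 0.116), or 13.1-fold, with rank 98 of 35877 by p; it was 3.06 without imatinib replicate 1, 4.41 without imatinib replicate 2 and 2.73 with 64 as the added constant. None of these passed, so the higher values are given as measured. In the last comparison Alox15 did pass with 1 as the added constant (adjusted p = 0.0399), with array medians subtracted (adjusted p = 0.00705) and among probe sets above the 50th percentile (adjusted p = 0.0199), and in BCR/ABL against vector with array medians subtracted (adjusted p = 0.0399). Over all alternatives its adjusted p ran from 0.00705 to 0.387 for imatinib against vector and from 0.0399 to 0.789 for BCR/ABL against vector.

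Alox12 encodes the platelet-type lipoxygenase, and it was dim throughout. Its brighter probe set, 1422699_at, read 18.4 and 17.7 on the vector arrays, 26.2 and 37.3 on the BCR/ABL arrays and 52.5 and 7.1 on the imatinib arrays. The imatinib arrays thus held both its highest and its lowest value. The log2 changes were 0.63 (-0.68 to 1.95) for BCR/ABL against vector, -0.49 (-1.8 to 0.82) for imatinib against BCR/ABL and 0.14 (-1.17 to 1.45) for imatinib against vector. The sign of the second turned without imatinib replicate 2 (0.32), and that of the third without imatinib replicate 1 (-0.67) or with 1 as the added constant (-0.07). The other probe set, 1422700_at, stayed below 16 on all 6 arrays.

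Ptgs2 encodes the inducible cyclooxygenase, and it had the largest change of any member from vector to BCR/ABL together with the widest spread between replicates among the brightest probe sets. Probe set 1417262_at read 43.5 and 33.4 on the vector arrays, 692 and 266 on the BCR/ABL arrays and 322 and 36.4 on the imatinib arrays. Both BCR/ABL arrays were above both vector arrays, while one imatinib array fell among the BCR/ABL values and the other among the vector values, or below them after normalization (log2 level 5.49 beside 5.81 and 5.64). The fold between replicates was 1.3 for vector, 2.6 for BCR/ABL and 8.85 for imatinib.

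The log2 change of Ptgs2 was 3.11 (SE 0.97, adjusted p = 0.35) for BCR/ABL against vector, and it lay between 2.44 and 3.74 with any single array left out, and at 1.87 when its probe sets were averaged. For imatinib against BCR/ABL it was -1.91 (-4.28 to 0.46, adjusted p = 0.445), or -3.36 without imatinib replicate 1 and -0.47 without imatinib replicate 2. For imatinib against vector it was 1.2 (-1.17 to 3.58, adjusted p = 0.637), with values of -0.24 and 2.67 when the same arrays were left out. The position of the imatinib group between the others therefore rests on the mean of unlike arrays. The second probe set, 1417263_at, was at 17.7 on BCR/ABL replicate 1 and below 16 on the other 5 arrays.

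**Figure D2:**
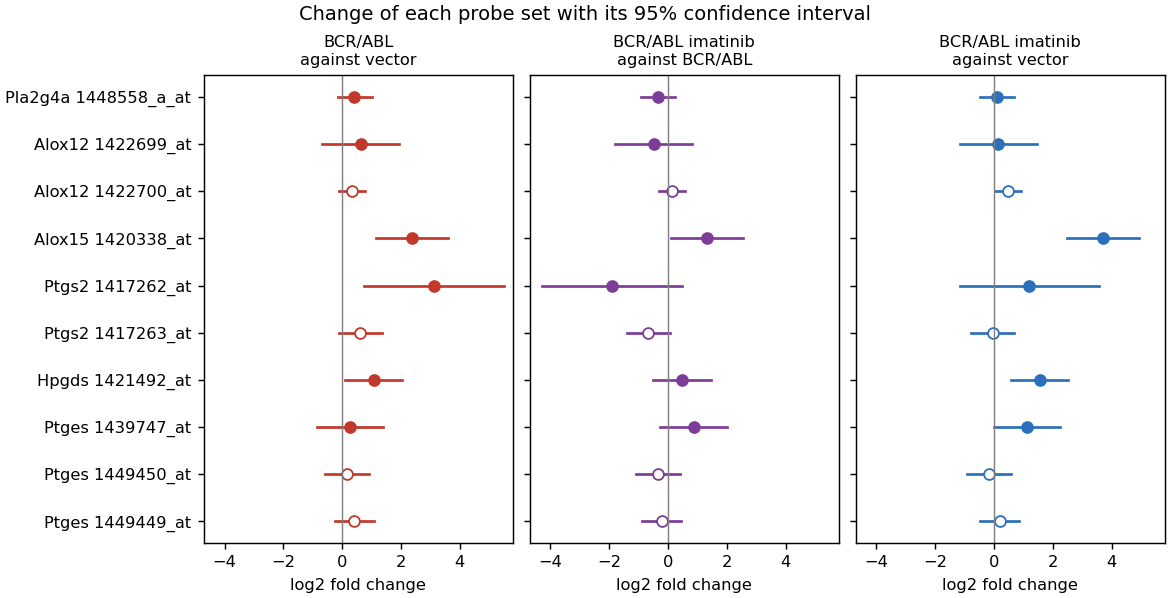
Log2 fold change (points) with 95% confidence interval (lines) of the 10 probe sets in the 3 comparisons, filled for the brightest probe set of a gene and open for the others. The interval of Alox15 lies above 0 in each panel, from 2.48 to 4.94 in the last, while that of Ptgs2 runs from -4.28 to 0.46 for imatinib against BCR/ABL; intervals are not adjusted for the number of probe sets.

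Hpgds encodes the haematopoietic prostaglandin D synthase. Its intensity was 45.7 and 27.3 on the vector arrays, 57.1 and 105 on the BCR/ABL arrays and 134 and 151 on the imatinib arrays. The 3 groups did not overlap, in the same order as for Alox15. The log2 change was 1.07 (SE 0.4, adjusted p = 0.402) for BCR/ABL against vector, or 2.11-fold, 0.47 (SE 0.4, adjusted p = 0.664) for imatinib against BCR/ABL, and 1.55 (SE 0.4, adjusted p = 0.217) for imatinib against vector, or 2.93-fold. With 1 array left out the last ran from 1.34 to 1.74.

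Ptges encodes an inducible prostaglandin E synthase that works with Ptgs2. Its brightest probe set, 1439747_at, read 37.8 and 6.63 on the vector arrays, 17.2 and 25.7 on the BCR/ABL arrays and 70.3 and 62.3 on the imatinib arrays. The imatinib arrays were the highest, and the vector arrays lay on either side of the BCR/ABL arrays. The log2 changes were 0.26 (-0.87 to 1.38, adjusted p = 0.871), 0.87 (-0.26 to 2, adjusted p = 0.465) and 1.13 (SE 0.46, adjusted p = 0.362) in the order of comparisons used above. Leaving out vector replicate 2 gave -0.34 for the first and 0.53 for the third, which was 1.69 when vector replicate 1 was left out. The other probe sets, 1449450_at and 1449449_at, read from 0.634 to 19.8 and did not share the pattern, with changes for imatinib against vector of -0.16 and 0.19.

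In BCR/ABL against vector, limma called 0 of the 10 probe sets at an adjusted p under 0.05, beside 0.0613% of all probe sets, and 3 were higher at an unadjusted p under 0.05, those of Alox15, Ptgs2 and Hpgds, beside 6.3%. At their brightest probe sets 5 of 6 genes were higher with no overlap between groups, all but Ptges, beside 23.5% of all probe sets, and 0 were lower, beside 19.7%. Over the 10 probe sets 7 were higher without overlap, beside the same 23.5%. These include the dim probe sets 1422700_at of Alox12 and 1417263_at of Ptgs2, whose order has little meaning near or below 16. The median change over the 6 genes was 0.85, beside 0.01 over the brightest probe sets of all genes. Alox15, Ptgs2 and Hpgds had changes above 1, as 3.45% of all probe sets did, and 0 had one below -1, beside 2.42%. The members were chosen with earlier results of these data known. Their counts and medians, here and in the comparisons below, are therefore a description and no test of the pathway.

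In imatinib against BCR/ABL, limma called 0 of the 10, beside 0% of all, and 1, that of Alox15, was higher at an unadjusted p under 0.05, beside 6.26%. Without overlap, 3 of the 10 probe sets were higher, those of Alox15, Hpgds and Ptges, beside 22.5% of all probe sets, and 2 were lower, those of Pla2g4a and the dim Ptgs2 probe set 1417263_at, beside 27%. The median change was 0.07. Among the 6 genes Alox15 alone had a change above 1, beside 2.13% of all probe sets, and Ptgs2 alone one below -1, beside 2.04%.

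In imatinib against vector, limma called 0 of the 10, beside 0.0446% of all, and 4 were higher at an unadjusted p under 0.05, beside 6.98%, namely those of Alox15, Hpgds, Ptges and the dim Alox12 probe set 1422700_at. The same 4 of the 10 probe sets were higher without overlap, beside 19.7% of all probe sets, and 0 were lower, beside 22.4%. The median change was 1.17, beside 0 over all genes. Alox15, Ptgs2, Hpgds and Ptges had changes above 1, beside 3.98%, and 0 had one below -1, beside 1.96%. Each pair of comparisons shares 2 arrays, so their values are not independent of one another. With 2 arrays against 2 an exact permutation test cannot give a p below 0.333, so each test here rests on the spread shared by limma across probe sets.

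Around the members, 55 of 59 listed genes of the pathway were measured, and 1 of them, Akr1c18, rose in BCR/ABL against vector and in imatinib against vector, while 0 fell and 0 passed in imatinib against BCR/ABL. At an unadjusted p under 0.05 these numbers were 9 higher and 1 lower, 12 higher and 1 lower, and 2 higher and 3 lower. Of all probe sets, 6.3%, 6.98% and 6.26% were higher at that p in the same order, and the share lower was not counted. The median changes of the 55 genes in the same order were 0.16, 0.15 and -0.01, beside 0.01, 0 and -0.01 over all genes. Akr1c18, an aldo-keto reductase that acts on progesterone and is listed here because it also reduces prostaglandins, read 8.77 and 0.48 on the vector arrays, 6810 and 6200 on the BCR/ABL arrays and 2810 and 1140 on the imatinib arrays. Its log2 change was 8.3 (adjusted p = 0.0152) and 6.46 (adjusted p = 0.0363) against vector, sizes that depend on the added constant because vector lay below 16. Its probes may also bind transcripts of close Akr1c paralogs, which was not tested. The call in imatinib against vector was lost without any 1 of vector replicates 1 and 2, BCR/ABL replicates 1 and 2 and imatinib replicate 1, and that in BCR/ABL against vector without vector replicate 2 or either BCR/ABL array.

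**Figure D3:**
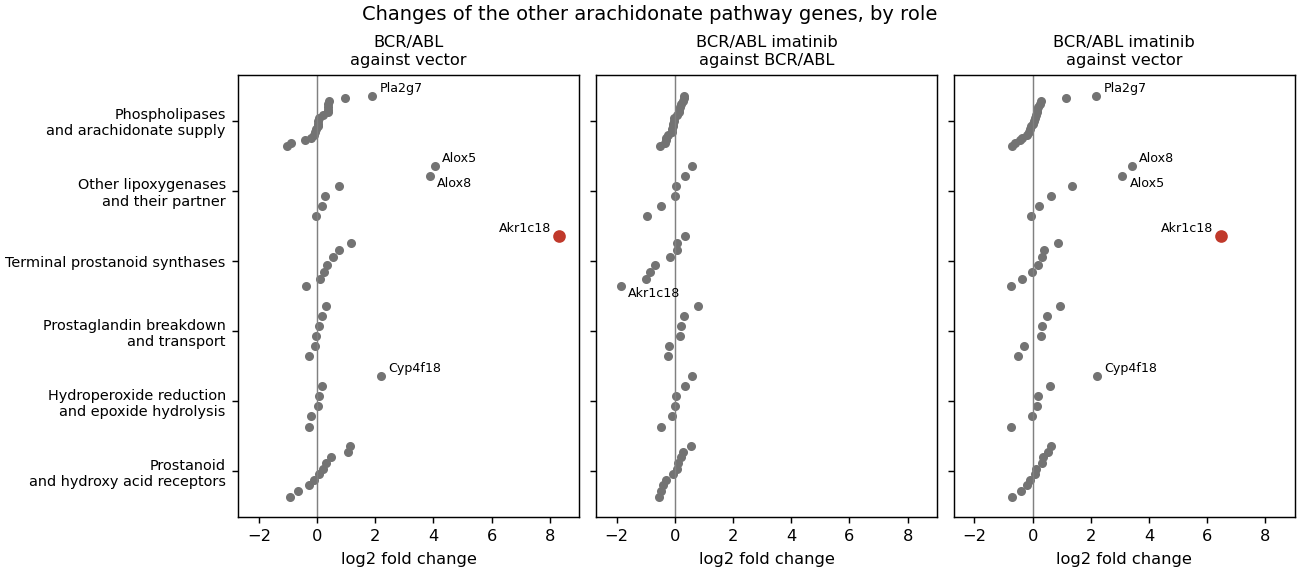
Log2 fold change of the 55 measured pathway genes outside the member list (points, at each gene's brightest probe set) in 6 role groups and 3 comparisons, with red for an adjusted p under 0.05 and names where the change exceeded 1.5 in size. Akr1c18 is the only red point, at 8.3 and 6.46, and in the middle panel it lies at -1.85 without a call.

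Among 6 genes, the other lipoxygenases and the partner gene Alox5ap, limma called 0 in each comparison. At an unadjusted p under 0.05, 3, 1 and 4 were higher in BCR/ABL against vector, imatinib against BCR/ABL and imatinib against vector. Beside these stand 6.3%, 6.26% and 6.98% of all probe sets. Alox5ap was among them each time, with changes of 0.29 (adjusted p = 0.29), 0.35 (adjusted p = 0.139) and 0.64 (adjusted p = 0.089). In imatinib against BCR/ABL it was the only gene counted, so no lipoxygenase of this list was. Alox8, a further arachidonate lipoxygenase, read 2.39 and 2.27 on the vector arrays, 227 and 255 on the BCR/ABL arrays and 271 and 141 on the imatinib arrays. Its change was 3.88 (adjusted p = 0.0778) and 3.41 (adjusted p = 0.116) against vector and -0.47 between the BCR/ABL groups, and the sizes against vector depend on the added constant, as vector lay below 16. Alox5, the leukotriene-forming lipoxygenase, read 231 and 77.4, 2660 and 2330, and 1730 and 920 in the same groups, with both imatinib arrays below both BCR/ABL arrays and a change of -0.97 (adjusted p = 0.432). Alox15 and Alox5 thus had changes of opposite sign with imatinib, and the difference between them was not tested. Alox12e, the epidermal-type lipoxygenase whose gene lies between Alox12 and Alox15, was dim at 11.3 and 2.85, 15.5 and 24.3, and 61.8 and 37.2, and the groups did not overlap.

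Of 19 measured phospholipases and arachidonate supply genes, 0 passed in any comparison. At an unadjusted p under 0.05, 0, 0 and 2 were higher, beside 6.3%, 6.26% and 6.98% of all probe sets, and 0 were lower. Pla2g7, which inactivates platelet-activating factor, had a change of 1.9 from vector to BCR/ABL (adjusted p = 0.479), with vector arrays at 314 and 31.7. Pla2g4c, a cytosolic phospholipase gene, had one of 0.96 (adjusted p = 0.738), and Pla2g1b, a secreted phospholipase gene, one of -1.02 (adjusted p = 0.593). Vector replicate 1 of Pla2g1b was at 66.1 and the other 5 arrays were below 16.

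Of 8 terminal prostanoid synthases Akr1c18 alone passed. At an unadjusted p under 0.05, 3 were higher in BCR/ABL against vector, beside 6.3% of all probe sets, and 2 were lower in imatinib against BCR/ABL. In imatinib against vector 2 were higher, beside 6.98%, and 1 was lower. The next genes, Tbxas1 and Ptges2, were chosen for their roles after their values were seen. Cbr3 had a larger change than either in BCR/ABL against vector, at 1.16 (adjusted p = 0.378). Tbxas1, thromboxane synthase, read 404 and 413 on the vector arrays, 766 and 657 on the BCR/ABL arrays and 659 and 898 on the imatinib arrays, with changes against vector of 0.77 (adjusted p = 0.31) and 0.86 (adjusted p = 0.204). Ptges2, another prostaglandin E synthase gene, read 336 and 393, 349 and 490, and 241 and 207, so that both imatinib arrays were the lowest. Its changes with imatinib were -0.99 against BCR/ABL (adjusted p = 0.206) and -0.75 against vector (adjusted p = 0.334).

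Of 10 measured receptors of prostanoids and hydroxy acids, 0 passed in any comparison. At an unadjusted p under 0.05, 2, 0 and 2 were higher, beside 6.3%, 6.26% and 6.98% of all probe sets, and 1, 1 and 0 were lower. Ptgir, the prostacyclin receptor gene, read 374 and 502 on the vector arrays, 959 and 968 on the BCR/ABL arrays and 759 and 640 on the imatinib arrays, a change of 1.12 to BCR/ABL (adjusted p = 0.217). Ptger3, a prostaglandin E receptor gene, read 840 and 786, 1790 and 1770, and 1480 and 991, a change of 1.07 (adjusted p = 0.206). Ptger2, another receptor for prostaglandin E, was on the other side at 294 and 216, 87.4 and 137, and 198 and 204, a change of -0.93 (adjusted p = 0.38). For these 3 genes the imatinib arrays lay between the vector and BCR/ABL arrays without overlap. They were named for the largest changes in BCR/ABL against vector, a choice that itself favours such an order. The share of all probe sets with this order was not counted.

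Of 6 genes for prostaglandin breakdown and transport and 6 for hydroperoxide reduction and epoxide hydrolysis, 0 passed in any comparison. Higher at an unadjusted p under 0.05 were 0, 1 and 1 of the former and 1, 0 and 1 of the latter. Beside these stand 6.3%, 6.26% and 6.98% of all probe sets, and 0 of either list were lower. In BCR/ABL against vector the exporter gene Abcc4 had a change of 0.31 (adjusted p = 0.723), the prostaglandin reductase gene Ptgr1 one of -0.29 (adjusted p = 0.705) and the importer gene Slco2a1 one of 0.17 (adjusted p = 0.849). Cyp4f18, a fatty acid hydroxylase, read 106 and 36.5 on the vector arrays, 329 and 310 on the BCR/ABL arrays and 472 and 282 on the imatinib arrays, a change of 2.19 (adjusted p = 0.245). The epoxide hydrolase gene Ephx2 had a change of -0.28 (adjusted p = 0.914) and Cyp2j6 one of -0.2 (adjusted p = 0.906).

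Genes with the most similar profile were sought among the brightest probe sets of all genes, as the smallest root mean square difference between profiles centred on their own means over the 6 arrays. Alox15 was nearest to Acsbg1, an acyl-CoA synthetase gene (0.11 on the log2 scale), Ddc, which encodes aromatic amino acid decarboxylase (0.16), and Asprv1 (0.3). Acsbg1 read 1.94 and 0.975 on the vector arrays, 69.4 and 49.2 on the BCR/ABL arrays and 333 and 120 on the imatinib arrays. Ptgs2 was nearest to Fxyd4 (0.34), Igfbp5 (0.45) and Cdh17 (0.46), which read 24, 28.7 and 18.4 on imatinib replicate 2. The search picks genes with a profile like that of Ptgs2, so these low values are not separate evidence about that array. Hpgds was nearest to Mxd1 (0.14), Tnni3 (0.16) and Tmem273 (0.19), Ptges to Grina (0.1), Prg2 (0.12) and Ampd3 (0.2), and Alox12 to Pdgfc (0.15), Zcchc14 (0.15) and Actn3 (0.21). Pla2g4a spanned 0.76 on the log2 scale, under the range of 1 required for this search. All profiles come from the same 6 arrays, so likeness also takes in whatever those arrays share.

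The summed intensity of mast cell and basophil markers had the same order of groups as Alox15 and Hpgds, as did that of megakaryocyte and platelet markers. All 11 measured mast cell and basophil markers were above vector without overlap in both BCR/ABL groups, beside 23.5% (untreated) and 19.7% (imatinib) of all probe sets. Between the BCR/ABL groups 7 were higher with imatinib without overlap, beside 22.5%, and 1 was lower, beside 27%. Hdc and Cd200r3 rose in BCR/ABL against vector, and they and Tpsab1 rose in imatinib against vector, while 0 fell. The mast cell and basophil markers summed to 16800 and 11500 on the vector arrays, 45200 and 44400 on the BCR/ABL arrays and 68900 and 58300 on the imatinib arrays. Tpsab1, a mast cell tryptase gene, was below 16 on both vector arrays, at 84.1 and 125 on the BCR/ABL arrays and at 1390 and 627 on the imatinib arrays. Cpa3, Fcer1a and Hdc were at 266 or above on every array. Other markers differed widely between vector replicates 1 and 2, with Mcpt4 at 518 and 2.4, Tpsb2 at 878 and 34 and Cma1 at 1390 and 159. The part of these markers in the values of Alox15, Ptgs2, Hpgds and Ptges was not tested.

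Eosinophil markers, 5 measured, summed to 7670 and 3560 on the vector arrays, 5120 and 7290 on the BCR/ABL arrays and 10900 and 9200 on the imatinib arrays. One of them, Prg2, was among the genes nearest to Ptges. Markers of megakaryocytes and platelets, 8 measured, summed to 1830 and 2020, 3920 and 3330, and 7020 and 6740, with Gp6 below 16 on all arrays. Of these 8, 6 were higher without overlap in BCR/ABL against vector, beside 23.5% of all probe sets, and 1 was lower, beside 19.7%. The lower marker, Vwf, read 147 and 134 on the vector arrays, 63.9 and 77.5 on the BCR/ABL arrays and 215 and 258 on the imatinib arrays. None of either list passed: limma called 0 in each comparison. At an unadjusted p under 0.05, 0 eosinophil and 4 megakaryocyte markers were higher in BCR/ABL against vector, beside 6.3% of all probe sets. In imatinib against BCR/ABL these were 1 and 3, beside 6.26%, and in imatinib against vector 2 and 5, beside 6.98%. The part of these markers in the values of Ptges and Alox12 was not tested.

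**Figure D4:**
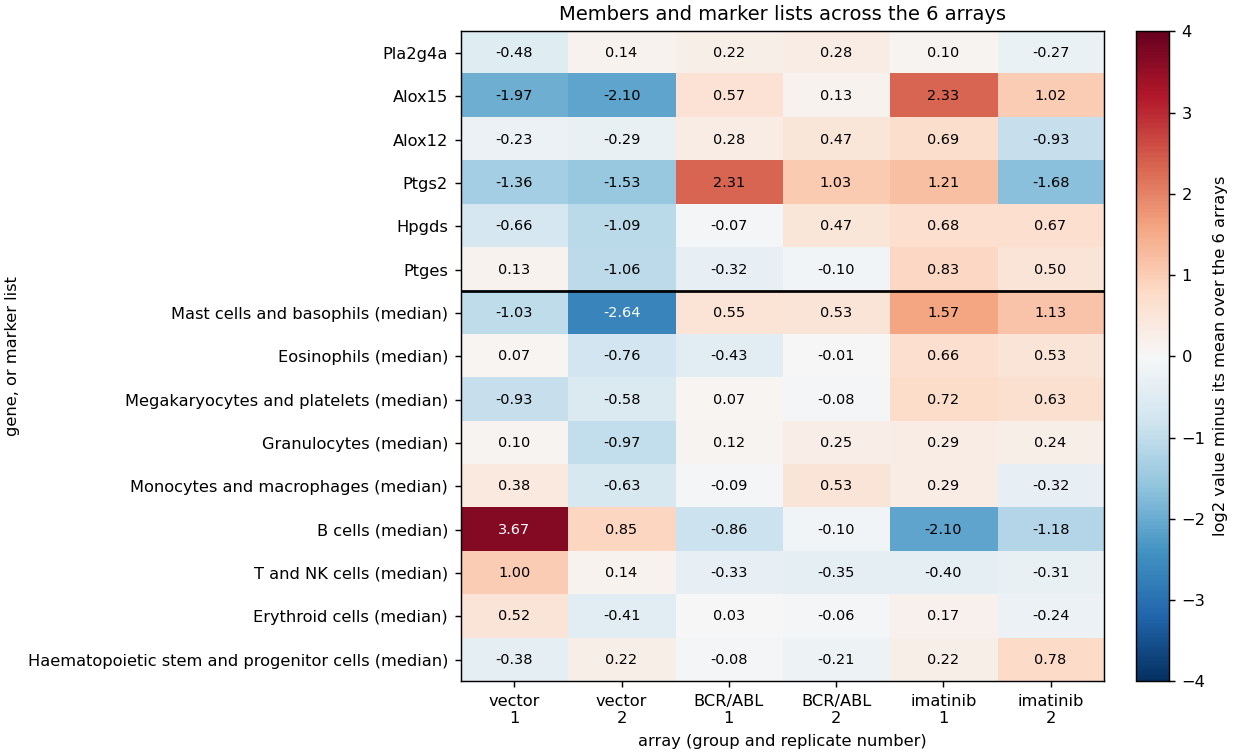
Log2 value minus its mean over the 6 arrays (colour and number) for the 6 member genes and for the median of each marker list, with 1 column for each array. Mast cell and basophil markers run from -2.64 on vector replicate 2 to 1.57 on imatinib replicate 1, and B cell markers from 3.67 on vector replicate 1 to -2.1 on imatinib replicate 1.

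The summed intensities of mast cell and basophil and of megakaryocyte and platelet markers did not overlap between any groups, while the sums of each of the other lists overlapped between at least 1 pair of groups. Granulocyte markers summed to 79400 and 51000 on the vector arrays, 78200 and 88700 on the BCR/ABL arrays and 84000 and 89400 on the imatinib arrays, and monocyte and macrophage markers to 9130 and 5280, 5510 and 7210, and 7540 and 5550. Erythroid markers summed to 2320 and 842, 1240 and 1130, and 1540 and 818, and T and NK cell markers to 689 and 95.2, 41.1 and 46.5, and 44.8 and 82.9. Markers of stem and progenitor cells summed to 15200 and 21000, 19800 and 17100, and 22500 and 27100, with both imatinib arrays above the others. Of the 9 measured, 6 were higher without overlap in imatinib against BCR/ABL, beside 22.5% of all probe sets, and 0 were lower, beside 27%. In imatinib against vector 4 were higher without overlap, beside 19.7%, and 0 were lower, beside 22.4%. In BCR/ABL against vector, limma called 0 members of each of these lists and of the B cell list. At an unadjusted p under 0.05, 1 granulocyte, 1 monocyte and 1 stem or progenitor marker were higher, beside 6.3% of all probe sets. Lower were 1 monocyte, 3 T and NK cell, 6 B cell and 2 stem or progenitor markers, and 0 erythroid markers were counted. In imatinib against BCR/ABL, 1 monocyte and 2 stem or progenitor markers were higher, beside 6.26%, and 1 B cell marker was lower. In imatinib against vector, 1 granulocyte and 3 stem or progenitor markers were higher, beside 6.98%. There 3 T and NK cell and 6 B cell markers were lower. The share of all probe sets lower at that p was not counted.

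**Figure D5:**
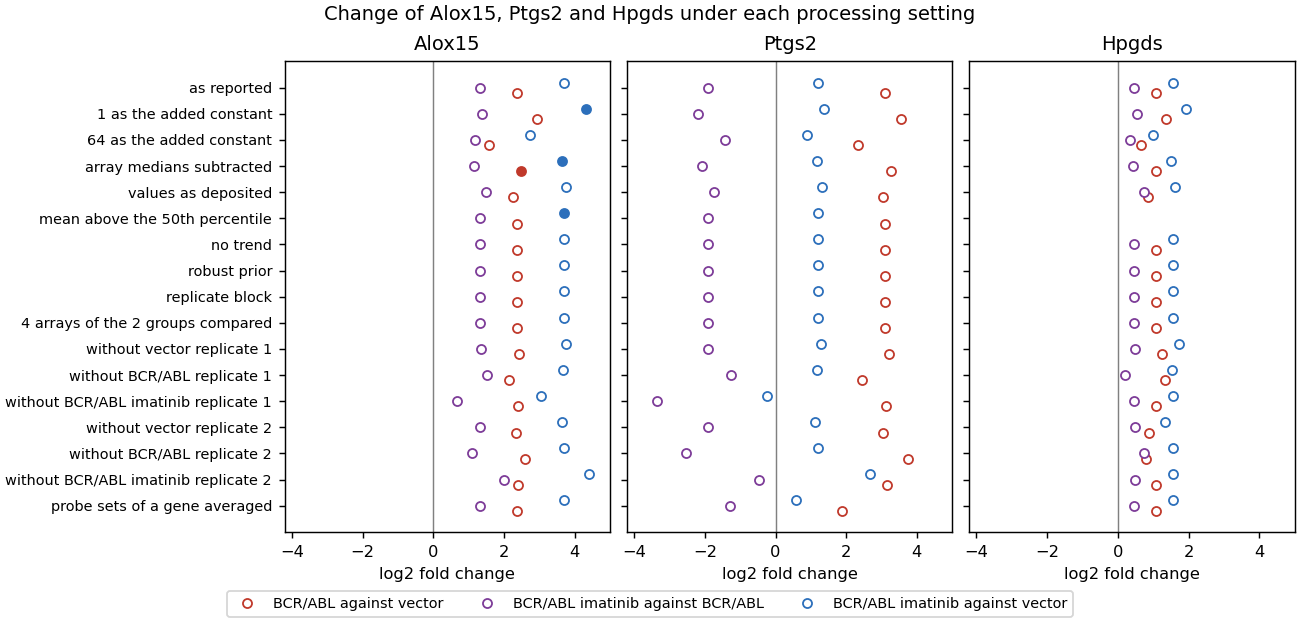
Log2 fold change of Alox15, Ptgs2 and Hpgds under each processing setting, with 1 colour for each comparison and filled points for an adjusted p under 0.05; settings without a point left the gene out. All filled points are of Alox15, and the points of Ptgs2 shift when either imatinib array is left out, from -3.36 to -0.47 for imatinib against BCR/ABL.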

How the data were processed

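The deposited values are array intensities that the authors made with Affymetrix Expression Console and MAS5, per the submitters' processing notes, without versions. The series' text describes whole-transcript arrays and labelling, whereas the probe set identifiers are those of an older Affymetrix mouse array, whose annotation was used; the labelling that was used remains unsettled. Of 45101 probe sets 64 controls were left out, and 34945 had 1 symbol, 932 several and 9160 none. Values were transformed as log2(value + 16) and, because array medians differed by 0.5 (over the tolerance of 0.1), quantile normalized. All 35877 probe sets with a symbol were tested in 1 model over the 6 arrays with limma 3.58.1 in R 4.3.3 (lmFit, eBayes with trend; 3 residual and 2.97 prior degrees of freedom), two-sided, with Benjamini-Hochberg adjustment over all of them and 0.05 as the threshold. The script was tested on simulated data. The number of arrays limits the precision.

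For each gene the probe set of highest mean over the arrays was used. Named were all member probe sets, pathway genes that passed or else the 3 of each list with the largest change in BCR/ABL against vector, and the 3 genes nearest to each member. Outside this rule, Tbxas1 and Ptges2 were named after their values were seen. The members and lists were chosen with earlier results of these data known. Sequences are from RefSeq (GRCm38.p6). Genes without a single-symbol probe set, Ptgs1 among them, were not analysed here. Alternatives covered the added constant, the scaling, a filter, the variance prior, a replicate block, the arrays fitted, each array left out in turn and averaging of probe sets.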

Additional observations from a re-analysis of the deposited data

How the results depend on the processing

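Of the 6 member genes' changes in 3 comparisons, those of Alox15 and Hpgds kept their sign under every alternative run. Member probe sets called went from 0 to 1, Alox15, in imatinib against vector with 1 as the added constant, with array medians subtracted (1) and above the 50th percentile (1, of 3 tested), and to 1 in BCR/ABL against vector with array medians subtracted, a scaling that moved the median of all probe sets to 0.2 in that comparison, -0.27 in imatinib against BCR/ABL and -0.09 in imatinib against vector. Pathway genes called in BCR/ABL against vector, 1 as reported, numbered 3 with 1 as the constant, 5 with array medians, 2 above the 50th percentile, 2 with a robust prior, 2 with the replicate block and 0 without the variance trend. In imatinib against vector, also 1 as reported, they numbered 3 with 1 as the constant, 0 with 64, 3 with array medians, 3 above the 50th percentile, 0 without the trend and 0 in the 4 arrays compared. In imatinib against BCR/ABL they numbered 1 with array medians. Leaving out 1 array gave 0 to 1 in both comparisons with vector. The cause was not tested. Signs turned for Alox12 in imatinib against vector (-0.07 with 1 as the constant) and Pla2g4a (-0.02 with array medians). With 1 array left out the ranges that crossed 0 were -0.22 to 0.39 for Pla2g4a, -0.67 to 0.94 for Alox12 and -0.24 to 2.67 for Ptgs2 in imatinib against vector, -1.3 to 0.32 for Alox12 in imatinib against BCR/ABL and -0.34 to 0.85 for Ptges in BCR/ABL against vector; the lone array of a group is then assumed to vary like the others. Same-numbered arrays deviated together at -0.08, 0.16 and 0.146 over the 3 pairs of groups, not all above 0.1, and the labels give no shared animal, batch or day, so whether the numbers pair the arrays is unresolved and no block was used in the reported values; with the replicate block 0 member probe sets were called in each comparison. Probe sets near background limit Alox12, Ptges and the vector levels of Alox15, Ptgs2 and Hpgds, and also Ptgs2 on imatinib replicate 2.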
